A study of Homo sapiens with 6 samples.

Results

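Metallothioneins are small cysteine-rich proteins that bind zinc and copper and buffer the free zinc of the cell. MTF1 is the zinc-sensing transcription factor that activates their genes through short promoter sequences called metal response elements, and SLC30A1 is the plasma membrane exporter that carries zinc out of the cell and is itself a known MTF1 target. The members were the rows of the deposited expression table whose symbol was MT2A, MT1A, MT1E, MT1F, MT1G, MT1M, MT1X, MTF1 or SLC30A1. Of these 9 symbols, 7 had values, among 31368 genes in all. MT1A and MT1G were not analysed here. All 7 passed the filter on low values. The cells were CAL27, an established human tongue squamous carcinoma line, profiled by poly-A-selected RNA-seq. The lactate group was 3 libraries from cells given 10 mM lactate for 24 h, and the untreated group was 3 libraries from the same line with no treatment. Both groups come from a single line. Nothing in the labels ties the replicates to separate cultures, so p-values here cover only the spread among these libraries, which may be technical.

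In lactate, MT2A and MT1M mRNA moved in opposite directions, MT2A higher and MT1M lower, and MT1E fell on the deposited scale, though its sign turned under 2 other ways of scaling. MT2A, the most abundant of them, averaged 8775 ± 179 FPKM in lactate and 7249 ± 214 FPKM in untreated cells (SD, n = 3 each). FPKM counts fragments scaled to gene length and library size. Levels between genes rest on the annotated lengths, and the library denominators in these files are not the recovered read totals. MT1E averaged 1738 ± 20.7 FPKM in lactate and 1922 ± 61.9 FPKM in untreated cells. The regulator MTF1 rose and the exporter SLC30A1 fell, both by little. With 1 library left out the call was lost in 3 of 6 refits for MTF1 and in 4 of 6 for SLC30A1.

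In GENCODE 29 on GRCh38, the 5 metallothionein members lie within 76.0 kb on chromosome 16, all on the plus strand. MT2A (ENSG00000125148) spans 56608199 to 56609497 and MT1E (ENSG00000169715) spans 56625475 to 56627112. MT1M (ENSG00000205364) follows at 56632233 to 56633986, MT1F (ENSG00000198417) at 56657694 to 56660698 and MT1X (ENSG00000187193) at 56682424 to 56684196. MTF1 (ENSG00000188786, 37809567 to 37859620) and SLC30A1 (ENSG00000170385, 211571568 to 211578742) lie on the minus strand of chromosome 1.

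The coding sequences of the 5 metallothioneins are all 186 nt long and hold 20 cysteine codons each. MT2A and MT1E are identical at 172 of these 186 bases (92.5%), and over all pairs identity ran from 88.7% (MT1F and MT1X) to 92.5%. Reads of such genes can be hard to place, and neither the read length nor the treatment of reads with several matches is given in the labels. Of the 50 nt words in the reference transcript of MT2A, 4.88% also occur in a transcript of another gene, and none of its 687 words of 100 nt do. For MT1E the values were 5.34% and none of 605, for MT1M 7.05% and none of 730, and for MT1F 3.59% and none of 591. MT1X stood apart with 45.1% of 50 nt words and 19.1% of 100 nt words shared. These shares are of its 450 nt reference transcript, while its FPKM values rest on a length of 1727 nt. Of its 1773 exon nt, 321 overlap the read-through transcript AC026461.1 on the same strand. The values of MT1X are therefore less certain than those of the others.

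Promoters from RefSeq (GRCh38.p14) were given for 4 members and were searched over 250 bases before to 50 after the start for the metal response element core, TGCACNC or TGCGCNC, on both strands. The MT2A window held 8 matches, a number reached by 7 (0.0199%) of 35116 promoters of that length. The MT1X window held 4, which 0.601% of promoters reached. The SLC30A1 window held 2, which 8.60% reached, and the MTF1 window held 0, where 29.6% of promoters held at least 1. The 250 bases upstream of the starts of MT2A, MT1X and SLC30A1 of the RefSeq annotation are printed. Of the 4 promoters given, only these held matches, and none was given for MT1E, MT1M or MT1F. Whether the matches bear on the changes in lactate was not tested. Capitals mark the matches, which may overlap, and the remaining matches lie in the 50 bases after the start. The RefSeq starts differ from those of GENCODE 29, so the MT2A stretch lies inside the gene span given above and the MT1X stretch ends inside its span. A match is a sequence and not a measured binding site.
MT2A, chr16:56608334-56608583, plus strand: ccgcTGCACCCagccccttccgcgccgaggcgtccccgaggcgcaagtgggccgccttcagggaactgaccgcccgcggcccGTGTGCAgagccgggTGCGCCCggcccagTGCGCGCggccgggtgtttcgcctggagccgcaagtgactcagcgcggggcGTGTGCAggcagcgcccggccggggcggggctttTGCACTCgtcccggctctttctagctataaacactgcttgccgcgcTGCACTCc
MT1X, chr16:56682220-56682469, plus strand: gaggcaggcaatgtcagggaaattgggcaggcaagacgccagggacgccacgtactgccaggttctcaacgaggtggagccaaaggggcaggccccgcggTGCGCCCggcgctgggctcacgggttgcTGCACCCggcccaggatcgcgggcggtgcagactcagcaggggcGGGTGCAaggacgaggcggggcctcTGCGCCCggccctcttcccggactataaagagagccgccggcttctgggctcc
SLC30A1, chr1:211579162-211579411, minus strand: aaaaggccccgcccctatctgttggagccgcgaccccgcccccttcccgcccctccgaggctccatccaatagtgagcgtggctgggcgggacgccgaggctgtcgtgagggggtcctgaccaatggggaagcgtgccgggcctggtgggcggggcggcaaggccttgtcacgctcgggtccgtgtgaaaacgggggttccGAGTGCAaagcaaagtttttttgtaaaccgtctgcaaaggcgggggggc

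The FPKM values correspond to denominators of 25163374 to 40220226 reads per library, worked out from the values themselves. All 8 squamous epithelial markers averaged at least 1 FPKM, and their summed level was 474 to 483 FPKM in lactate and 462 to 468 FPKM in untreated libraries. The 5 fibroblast and 3 leukocyte markers with values reached at most 0.842 and 0.857 FPKM in any library. Summed fibroblast markers were 1.25 to 1.46 FPKM in lactate and 0.831 to 0.955 FPKM in untreated libraries, summed leukocyte markers 0.369 to 0.632 FPKM in lactate and 0.707 to 0.891 FPKM in untreated ones. Of 3 endothelial markers, CDH5 alone averaged over 1 FPKM, and their sums were 1.03 to 1.13 FPKM in lactate and 1.13 to 1.41 FPKM in untreated libraries. The part of these markers in the results was not tested. Fewer cells of a kind and less RNA per cell cannot be told apart in bulk libraries.

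The test was limma on log2(FPKM + 1) over 11792 genes, with Benjamini-Hochberg adjustment over all of them. The background was high, since 58.6% of all tested genes passed an adjusted p of 0.05, 27.7% as higher and 30.9% as lower in lactate. Of the 7 members, 5 passed, 2 higher and 3 lower, which is near that background. The groups did not overlap in the same 5 members, where they did not overlap in 65.5% of all tested genes. Neither count is a result about these genes in particular.

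MT2A encodes the most widely expressed human metallothionein. Its levels were 8586, 8943 and 8796 FPKM in lactate replicates 1 to 3, against 7016, 7437 and 7293 FPKM in untreated replicates 1 to 3. The lowest lactate library lay above the highest untreated one. The log2 fold change of lactate over untreated was 0.28 (SE 0.024, limma adjusted p = 9.65e-05), a ratio of means of 1.21. MT2A ranked 6 of all genes by mean FPKM and rested on 171053 to 323338 reads per library. It made up 0.830% ± 0.0219 of recovered reads in lactate and 0.652% ± 0.0233 in untreated libraries (SD, n = 3 each). The rise did not pass after quantile normalization (0.22, adjusted p = 0.0570), and it came to 0.47 (adjusted p = 3.66e-05) once a smooth dependence on GC content and length had been taken out of every library.

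MT1E encodes an inducible isoform of the metallothionein 1 group. Its levels were 1721, 1731 and 1761 FPKM in lactate replicates 1 to 3, against 1860, 1984 and 1922 FPKM in untreated replicates 1 to 3. All 3 lactate libraries lay below all 3 untreated ones. The log2 fold change was -0.15 (SE 0.024, limma adjusted p = 0.00153). This fall depended on how libraries were scaled. It was -0.07 with libraries scaled to their read totals (adjusted p = 0.0584). The sign turned after quantile normalization (0.038, adjusted p = 0.236) and with the GC and length trend removed (0.041, adjusted p = 0.245). As a share of recovered reads MT1E was 0.186% to 0.192% in lactate and 0.191% to 0.206% in untreated libraries. These ranges overlap (exact two-sided permutation p = 0.2). With 3 libraries per group this permutation test cannot give a p below 0.1. It could therefore not pass the threshold for any gene, and no conclusion is drawn from it. The read share of MT2A, whose groups did not overlap, gave that lowest value of 0.1.

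The ratio of MT2A to MT1E within a library needs no scaling between libraries. It was 4.989, 5.166 and 4.995 in lactate replicates 1 to 3, against 3.77, 3.75 and 3.79 in untreated replicates 1 to 3. The groups lay far apart (5.05 ± 0.10 in lactate and 3.77 ± 0.0227 in untreated cells). On the deposited scale every lactate library had more MT2A and less MT1E than every untreated one. The ratio therefore had to separate the groups, and it is given as a description with no test. MT2A accordingly made up 83.2% ± 0.281 of summed metallothionein FPKM in lactate and 78.7% ± 0.0920 in untreated cells, and MT1E 16.5% ± 0.268 in lactate and 20.9% ± 0.102 in untreated cells. The sum over the 5 metallothioneins was 10544 ± 186 FPKM in lactate and 9209 ± 275 FPKM in untreated cells. MT2A and MT1E together held 99.7% of it in lactate and 99.6% in untreated cells.

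**Figure D1:**
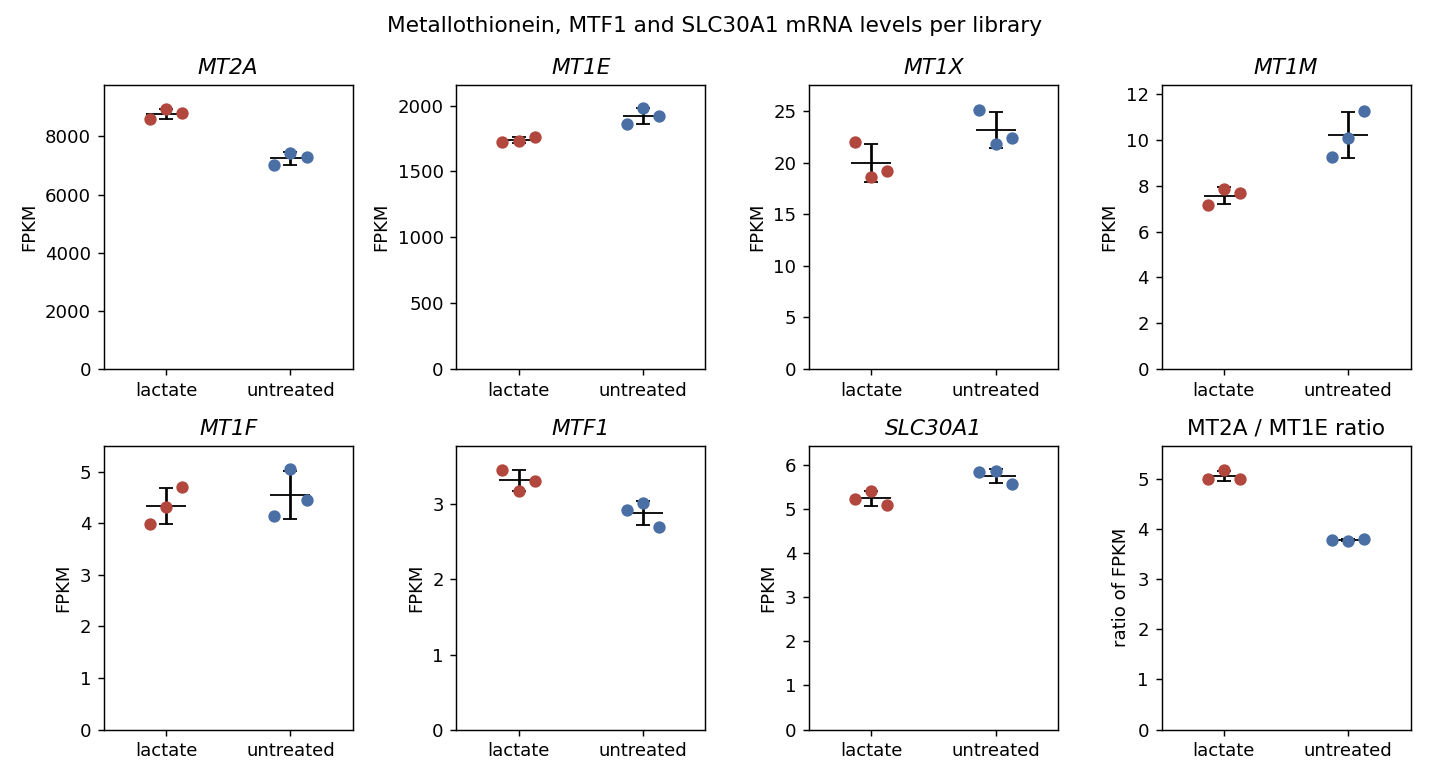
FPKM of each member in each library (points), with the mean and SD of 3 lactate (left) and 3 untreated (right) libraries, and the within-library ratio of MT2A to MT1E. MT2A and MTF1 lie higher in all lactate libraries, MT1E (on the deposited scale), MT1M and SLC30A1 lower, MT1X and MT1F overlap, and the ratio is 4.99 to 5.17 in lactate against 3.75 to 3.79 in untreated libraries.

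MT1M, MT1X and MT1F, the remaining metallothionein 1 genes with values, were present at a small fraction of the MT2A level. MT1M stood at 7.14, 7.85 and 7.69 FPKM in lactate replicates 1 to 3, against 9.27, 10.1 and 11.3 FPKM in untreated replicates 1 to 3. All lactate libraries lay below all untreated ones. Its log2 fold change was -0.39 (SE 0.067, limma adjusted p = 0.00219), from 113 to 192 reads per library. It came to -0.21 with the GC and length trend removed and passed there too (adjusted p = 0.0314).

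MT1X had 22.015, 18.6 and 19.1 FPKM in lactate replicates 1 to 3, against 25.1, 21.8 and 22.4 FPKM in untreated replicates 1 to 3. Lactate replicate 1 lay above untreated replicate 2, so the groups overlap. The log2 fold change was -0.21 (SE 0.075) with an adjusted p of 0.0540 in limma, just outside the threshold. Without lactate replicate 1 it was -0.28 and passed (adjusted p = 0.00935), and it was -0.04 with the GC and length trend removed (adjusted p = 0.706). MT1F had 3.99, 4.32 and 4.70 FPKM in lactate replicates 1 to 3, against 4.14, 5.04 and 4.46 FPKM in untreated replicates 1 to 3. Its groups overlap and the test was not passed (log2 fold change -0.05, 95% interval -0.22 to 0.11, limma adjusted p = 0.530).

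MTF1 binds the metal response elements when zinc is plentiful. Its mRNA stood at 3.46, 3.18 and 3.31 FPKM in lactate replicates 1 to 3, against 2.93, 3.02 and 2.70 FPKM in untreated replicates 1 to 3. The groups did not overlap, with a log2 fold change of 0.15 (SE 0.046, limma adjusted p = 0.0218) and a ratio of means of 1.15. The call did not hold without lactate replicate 1 (adjusted p = 0.0722), lactate replicate 3 (0.0572) or untreated replicate 3 (0.0662). It was also lost after quantile normalization (0.0695), with no filter on low values (0.0733) and with the GC and length trend removed (0.0550).

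SLC30A1 exports zinc across the plasma membrane. It stood at 5.21, 5.41 and 5.08 FPKM in lactate replicates 1 to 3, against 5.83, 5.85 and 5.55 FPKM in untreated replicates 1 to 3. All lactate libraries lay below all untreated ones, with a log2 fold change of -0.11 (SE 0.035, limma adjusted p = 0.0264) and a ratio of means of 0.911. The call was lost without lactate replicate 1 (adjusted p = 0.0658), lactate replicate 3 (0.0927), untreated replicate 1 (0.0747) or untreated replicate 2 (0.0736). With read totals the fold change was -0.05 (adjusted p = 0.243), without a filter on low values the adjusted p was 0.0740, and after removal of the GC and length trend it was -0.27 (adjusted p = 0.000972).

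In both groups the order of levels per length was MT2A, MT1E, MT1X, MT1M, SLC30A1, MT1F and MTF1 from high to low, and the ranges of neighbours in that order did not overlap in either group. The gene lengths behind the FPKM values, recovered from the values themselves, were 914 nt for MT2A, 1052 nt for MT1E, 1727 nt for MT1X, 1852 nt for MT1F and 511 nt for MT1M. The reference transcripts of these genes have 786, 704, 450, 690 and 829 nt, so a level per length depends on the annotation used.

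**Figure D2:**
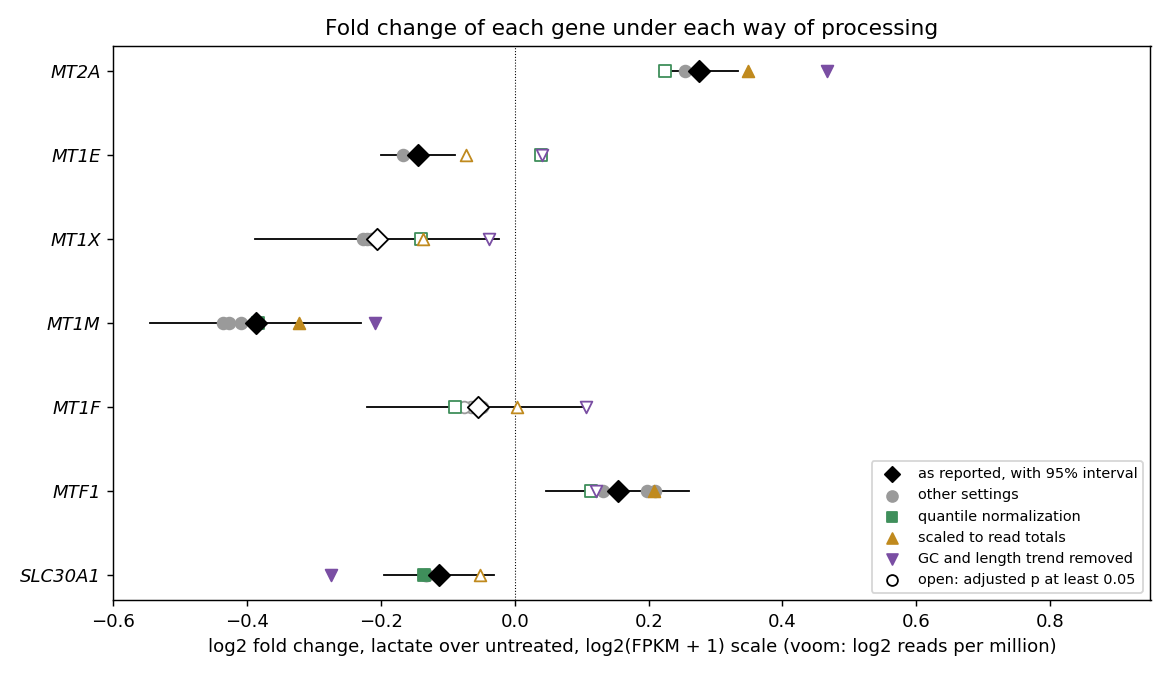
Log2 fold change of each member (lactate over untreated) as reported, with its 95% interval (diamonds and lines), and under each other way of processing, where open symbols had an adjusted p of at least 0.05. MT2A lies right of 0 and MT1M left of 0 under every setting drawn, while MT1E crosses 0 after quantile normalization (0.038) and after removal of the GC and length trend (0.041).

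Of the tested genes in the cluster, MT2A, MT1E and MT1M passed, and MT1L, MT1DP, MT1F and MT1X did not. MT1E and MT1M lie next to each other among these genes. Between MT2A and MT1E lies MT1L, a transcribed pseudogene, at 50.4 ± 3.88 FPKM in lactate and 47.0 ± 3.43 FPKM in untreated cells, which did not pass (log2 fold change 0.10, limma adjusted p = 0.270). MT1DP, another transcribed pseudogene further along, averaged 2.06 ± 1.02 FPKM in lactate and 2.17 ± 0.445 FPKM in untreated cells and did not pass (adjusted p = 0.775). The nearest tested gene downstream, the nucleoporin gene NUP93, was lower (23.5 ± 0.357 FPKM in lactate and 25.7 ± 0.262 FPKM in untreated cells, log2 fold change -0.12, adjusted p = 0.00254). The nearest tested gene upstream, OGFOD1, which encodes a prolyl hydroxylase of a ribosomal protein, did not pass (log2 fold change -0.06, adjusted p = 0.0601). These flanking genes were taken within 150 kb of the cluster after values had been seen.

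**Figure D3:**
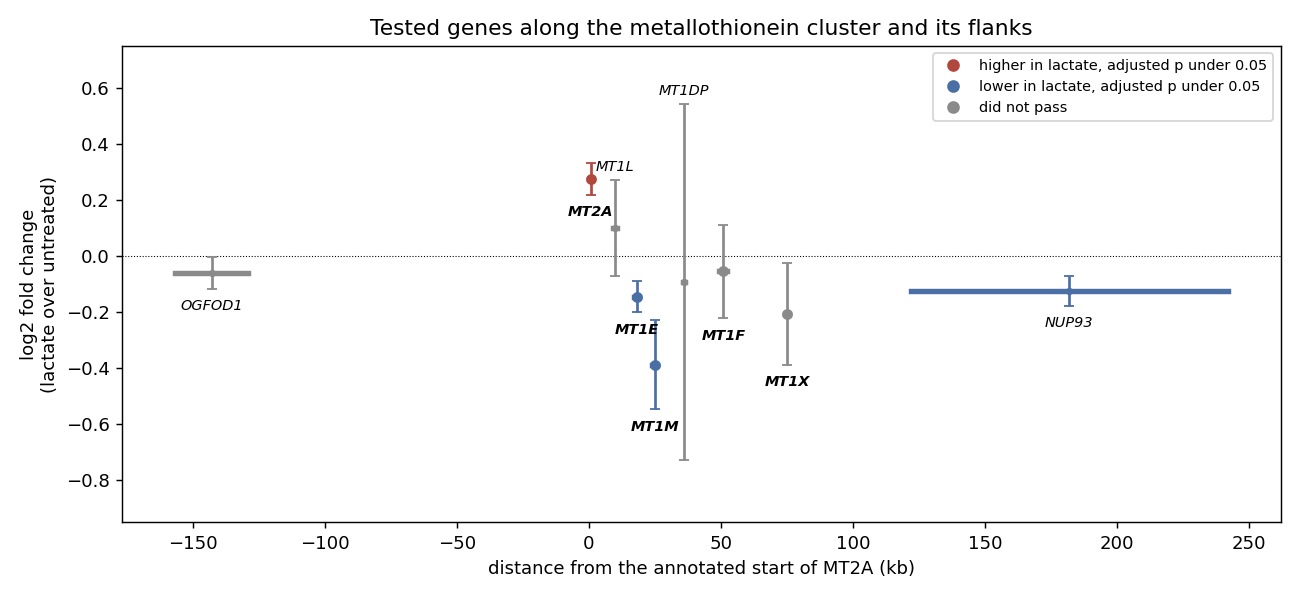
Log2 fold change (lactate over untreated, points with 95% intervals) of tested genes against distance from the annotated start of MT2A in kb, with each horizontal bar spanning the gene. MT2A at 0 kb is higher in lactate, MT1E (whose sign depends on scaling) and MT1M are lower, and MT1L, MT1DP, MT1F and MT1X, which lie between or beyond them, did not pass.

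Outside the cluster, MT2P1, a processed pseudogene of MT2A on chromosome 4 (68376323 to 68376505), rose as well. It stood at 7.77, 7.81 and 8.56 FPKM in lactate replicates 1 to 3, against 4.44, 6.08 and 5.74 FPKM in untreated replicates 1 to 3 (log2 fold change 0.50, SE 0.10, limma adjusted p = 0.00562). It had 23 to 63 reads per library. Of its 50 nt words 15.7% occur in transcripts of other genes, MT2A among them, while none of its 84 words of 100 nt do. The read length is not given in the labels, so its reads cannot be told apart with certainty from those of MT2A. Of 14 further metallothionein genes and pseudogenes listed, 7 had values and 3 were tested, of which MT2P1 alone passed.

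The other zinc transporters moved in both directions. Most SLC30 proteins move zinc out of the cytosol into compartments or out of the cell, and SLC39 proteins move it into the cytosol. SLC30A9, which exports zinc from mitochondria, is an exception among the SLC30 proteins. Of 5 tested SLC30 genes, SLC30A1 included, 3 rose and 1 fell, with a median log2 fold change of 0.15. Of 10 tested SLC39 genes, 3 rose and 2 fell, with a median of -0.02. Over all tested genes 27.7% rose and 30.9% fell, with a median also of -0.02. SLC30A9, a mitochondrial zinc exporter, averaged 11.2 ± 0.292 FPKM in lactate and 8.44 ± 0.268 FPKM in untreated cells (log2 fold change 0.37, adjusted p = 9.82e-05), a change of 0.20 with the GC and length trend removed (adjusted p = 0.00141). SLC30A6 (0.23) and SLC30A5 (0.15), which pair to fill the early secretory pathway, also rose. Both calls were lost with that trend removed, where SLC30A6 was 0.079 (adjusted p = 0.0682) and SLC30A5, the gene at the median of its list, was 0.0058 (0.920).

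Among importers, the plasma membrane proteins SLC39A10 (log2 fold change 0.32, adjusted p = 0.000227) and SLC39A6 (0.24) rose, as did SLC39A8, which also carries manganese (0.20). SLC39A10 stood at 4.58 ± 0.0826 FPKM in lactate and 3.48 ± 0.116 FPKM in untreated cells, with no overlap between groups. With the GC and length trend removed these 3 importers still passed, at 0.15 for SLC39A10, 0.15 for SLC39A6 and 0.11 for SLC39A8. SLC39A7, which releases zinc from the endoplasmic reticulum and was the most abundant of these importers, fell to 65.0 ± 0.316 FPKM in lactate, against 77.4 ± 0.30 FPKM in untreated cells (log2 fold change -0.25, adjusted p = 3.29e-05). The fall of SLC39A7 was -0.11 both after quantile normalization (adjusted p = 0.00106) and with the trend removed (0.000996). SLC39A4, an importer known from the intestine, fell by 0.18 on the log2 scale, a call lost with the GC and length trend removed (adjusted p = 0.0564).

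**Figure D4:**
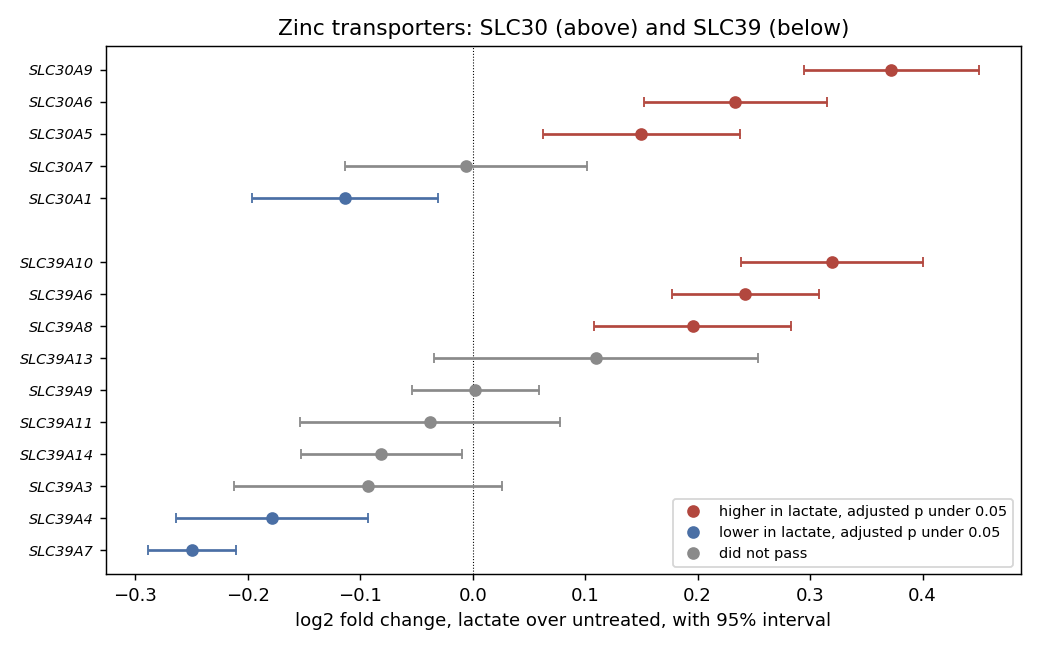
Log2 fold change (lactate over untreated) with 95% intervals for the 5 tested SLC30 genes (above) and 10 tested SLC39 genes (below), coloured by whether the adjusted p in limma was under 0.05. SLC30A9 (0.37) and SLC39A10 (0.32) lie farthest to the right in their families, SLC30A1 (-0.11) and SLC39A7 (-0.25) farthest to the left.

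Copper is the other metal bound by metallothioneins. Of 11 tested genes that handle it, 1 rose and 6 fell (median log2 fold change -0.10), where 27.7% of all tested genes rose and 30.9% fell. Over all the context lists together, members left out, 17 of 64 tested genes were higher and 23 lower. With read totals 22 were higher and 14 lower, and after quantile normalization 20 were higher and 14 lower. SOD1, the copper and zinc superoxide dismutase, fell to 212 ± 4.43 FPKM in lactate, against 249 ± 6.98 FPKM in untreated cells (log2 fold change -0.23, adjusted p = 0.000234). This call was lost after quantile normalization (-0.05, adjusted p = 0.205) and the change was -0.07 after removal of the GC and length trend (0.0448). The copper chaperone of cytochrome oxidase COX11 (-0.22) and the metalloreductase STEAP3 (-0.16) fell, while its relative STEAP2 rose (0.24). STEAP3 and STEAP2 no longer passed with the GC and length trend removed (adjusted p = 0.0738 and 0.397).

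By likeness over the 6 libraries, the genes closest to MT2A among 3993 with a mean of at least 10 FPKM were KHDRBS1 (Pearson r of log2 values 0.998), DKK1, KRT17, LPCAT1 and NUP98 (0.994 to 0.995). The 6 libraries fall into the same 2 groups for every gene, so these r values are a description and carry no test. KRT17, a keratin of activated epithelium, averaged 136 FPKM in lactate and 108 FPKM in untreated cells.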

How the data were processed

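The authors deposited FPKM values per gene for 6 libraries. The submitters' processing notes name build hg38 (GRCh38), featureCounts 1.5.0-p3, HISAT2 2.0.5, fastp and StringTie 1.3.3b, without their roles. No source used here gives the annotation release, the strand setting or the form of lactate. Groups came from the labelled treatment. A gene entered the test if 3 or more libraries reached 1 FPKM, and was tested with limma 3.58.1 (R 4.3.3; trended, robust variance) on log2(FPKM + 1), with group as the only term, Benjamini-Hochberg adjustment over all tested genes and a threshold of 0.05. Fold changes on this scale understate the change of low genes. Low FPKM values were whole multiples of a constant, so whole reads were recovered to within 0.003 reads for 31366 genes (99.99%), at the annotated or else the shortest gene length that gave whole numbers. Recovered reads summed to 25439355 to 38772844 per library. The denominators of the FPKM values differ from these sums, lying above them in the lactate libraries and below them in the untreated ones. The test was run on simulated data first. Summaries used scipy 1.17.1, pandas 2.3.3 and numpy 2.4.6 under Python 3.11.15, and plots matplotlib 3.10.9. Coordinates, lengths and GC content came from GENCODE 29. The members, the lists and the alternatives were chosen with earlier results of these data known. Named genes were all members with values, up to 3 genes of smallest p per direction in each list and the 5 genes most like MT2A. Tested neighbours of the cluster and the marker CDH5 were named outside this rule, after their values were seen.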

Additional observations from a re-analysis of the deposited data

How the results depend on the processing

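Over all genes 6914 passed, and 5967 to 6432 with 1 library left out. With read totals in place of the deposited scaling, 4186 genes were higher and 2548 lower, against 3265 higher and 3649 lower as reported, and voom on recovered reads called 3490 higher and 3857 lower. The fit at 5 FPKM called 1786 higher and 2955 lower of 6448 tested. Of the 7 members, 5 passed as reported and 3 to 5 with 1 library left out. The count was 3 without a filter on low values, with read totals or with the GC and length trend removed, and 2 after quantile normalization. It was 6 with median centring, with the replicate number as a block and with voom on recovered reads, and 5 of 5 tested at 5 FPKM. The matching counts for all genes were 6991, 7039 and 7347 of 11792, and 4741 of 6448 at 5 FPKM. Over all genes 5981 of 31368 passed without a filter and 6734 of 11792 with read totals. With the GC and length trend removed 5668 of 11588 genes passed, and after quantile normalization 6543 of 11792. MT2A was 0.22 after quantile normalization (adjusted p = 0.0570). MT1E was 0.038 after quantile normalization, -0.07 (-0.073) with read totals and 0.041 with the GC and length trend removed. MT1X passed at 5 FPKM (-0.21), with median centring (-0.23) and with voom on recovered reads (-0.22). SLC30A1 did not pass without a filter (-0.11) or with read totals (-0.053), nor MTF1 without a filter (0.15), after quantile normalization (0.11) or with the trend removed (0.12). MT1F was 0.0038 with read totals and 0.11 with the trend removed. The cause of each was not tested.

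With 1 library left out the ranges were 0.25 to 0.29 for MT2A, -0.17 to -0.12 for MT1E, -0.45 to -0.32 for MT1M, -0.28 to -0.15 for MT1X, -0.13 to -0.10 for SLC30A1, 0.12 to 0.18 for MTF1 and -0.11 to 0.0084 for MT1F. The summed metallothionein level was higher in lactate by 1336 FPKM, by 1846 FPKM with read totals, and by 1189 to 1461 FPKM with 1 library left out. Of the 64 tested genes of the lists that are no members, 40 passed (17 higher, 23 lower), where 58.6% of all tested genes passed. That count was 34 to 37 with 1 library left out and 36 with read totals (22 higher, 14 lower). It was 34 after quantile normalization (20 higher, 14 lower) and 31 with the trend removed (15 higher, 16 lower).

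With the replicate number as a replicate block MT1X passed (-0.21, adjusted p = 0.000721), and no other member's call changed. Over all tested genes, libraries with the same number deviated together at r of 0.053, 0.067 and -0.0038, so the numbers were not taken as pairs. MT2A, MT1X and SLC30A1 still ordered the replicate numbers alike in both groups, while MT1E, MT1M, MT1F and MTF1 did not. With the block the SE was 0.0067 for MT2A and 0.021 for MT1X, against 0.024 and 0.075 as reported. A pairing of these libraries is therefore not settled. Of the 30 genes named from the lists, members left out, 33 of 469 refits lost the call and 2 turned the sign. Both were of DUSP1, at 0.058 after quantile normalization and at 0.082 with the trend removed, where it passed as higher. The filter at 5 FPKM left MTF1 and MT1F untested. MT1M rested on 113 to 192 reads and MT1F on 217 to 350 reads per library, which limits both.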

Other observations

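Genes outside the metallothionein family that respond to metals and oxidants moved in both directions. Of 13 tested, 2 rose and 6 fell, with a median log2 fold change of -0.07, where 27.7% of all tested genes rose and 30.9% fell. The balance of higher and lower calls over all lists together turned with read totals and after quantile normalization, as given with the processing. TXNRD1, a thioredoxin reductase gene, averaged 112 ± 0.739 FPKM in lactate and 93.4 ± 1.23 FPKM in untreated cells (SD, n = 3 each; log2 fold change 0.26, limma adjusted p = 3.29e-05). The quinone reductase gene NQO1 fell to 75.9 ± 1.57 FPKM in lactate, against 89.2 ± 1.87 FPKM in untreated cells (log2 fold change -0.23), and was -0.10 after quantile normalization. The immediate early gene EGR1 rose (0.10, and 0.23 after quantile normalization and with the GC and length trend removed), and FOS (-0.16) and the HSP40 gene DNAJB1 (-0.14) fell. FOS no longer passed with that trend removed (adjusted p = 0.214), nor DNAJB1 after quantile normalization (0.0549).

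Metallothionein genes also respond to glucocorticoids. Of 9 tested glucocorticoid-responsive genes 4 rose and 3 fell (median 0.02), where 27.7% of all tested genes rose and 30.9% fell. The co-chaperone gene FKBP5 rose (log2 fold change 0.21), as did NR3C1, which encodes the receptor (0.26), and ERRFI1, an inhibitor of the EGF receptor (0.20), while TSC22D3 (-0.24), the kinase gene SGK1 (-0.13) and the phosphatase gene DUSP1 (-0.08) fell. DUSP1 turned its sign after quantile normalization (0.058, adjusted p = 0.0725). With the GC and length trend removed it passed as higher (0.082, adjusted p = 0.0140), and with read totals it was -0.0070 (0.843). Its call was also lost with no filter on low values (adjusted p = 0.0996) and with no variance trend (0.0690). The same held without lactate replicate 1 (adjusted p = 0.0890), lactate replicate 3 (0.0667), untreated replicate 1 (0.0939) or untreated replicate 2 (0.0770). With the GC and length trend removed FKBP5 (adjusted p = 0.345), NR3C1 (0.133) and TSC22D3 (0.0786) no longer passed, and SGK1 was lost after quantile normalization (0.0599) and with read totals (0.0683).

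Iron genes were split as well. Of 15 tested, 3 rose and 6 fell (median -0.03), set against the same shares of all tested genes. The 3 that fell with the smallest p were GLRX3, a glutaredoxin gene (log2 fold change -0.27, -0.15 after quantile normalization), the haem oxygenase gene HMOX2 (-0.21, and -0.08 after quantile normalization) and FTH1. The 3 that rose were TFRC, the iron regulatory protein gene IREB2 (0.22) and the iron-sensing ubiquitin ligase subunit gene FBXL5 (0.20). With the GC and length trend removed IREB2 (adjusted p = 0.618) and FBXL5 (0.406) no longer passed. FBXL5 was also lost without lactate replicate 2 (adjusted p = 0.0961), lactate replicate 3 (0.0836), untreated replicate 2 (0.0973) or untreated replicate 3 (0.0810). The transferrin receptor gene TFRC averaged 60.7 ± 1.48 FPKM in lactate and 52.7 ± 0.718 FPKM in untreated cells (log2 fold change 0.20, adjusted p = 0.000345), and the ferritin heavy chain gene FTH1 averaged 725 ± 25.2 FPKM in lactate and 840 ± 14.1 FPKM in untreated cells (-0.21, adjusted p = 0.000414). With the GC and length trend removed neither passed (adjusted p = 0.0535 for TFRC and 0.0660 for FTH1), and FTH1 was also lost after quantile normalization (0.213).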
